A study of Mus musculus with 35 samples.

Results

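Genes of the hypoxia response and of glycolysis were followed in 35 cultures of mouse inguinal fat cells, each hybridised to 1 Affymetrix Mouse Exon 1.0 ST array. The set was a list of 38 gene symbols, and its members were the array's transcript clusters (the probes summarised into 1 value for a gene) annotated with 1 of these symbols alone. This gave 35 of the 38 genes on 40 clusters, of 15224 genes and 17958 clusters in all. Ldha, Eno1 and Gpi1 had no cluster carrying their symbol alone and were not analysed here. By role, 4 measured members sense oxygen, 11 take up glucose or act in upper glycolysis, 7 act in lower glycolysis or handle lactate and pyruvate, and 13 are other genes known to be induced by hypoxia.

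The cultures were grown from adipocyte progenitors isolated from inguinal subcutaneous fat of C57BL/6J or SV129 mice and were differentiated in culture in air with added CO2. At day 7 there were 9 cultures with 1 μM rosiglitazone maleate (ROSI; 4 C57BL/6J, 5 SV129), 10 with 1 μM norepinephrine (NE; 5 C57BL/6J, 5 SV129) and 8 without either drug (control; 4 of each strain). A further 8 untreated cultures were collected at day 3 (4 of each strain). All groups shared the same medium with serum, insulin and ascorbate, the drugs were present from the first day of culture, and no genetic change was labelled in any group. Cultures were grouped by their own treatment labels, since the general treatment note lists ROSI and NE together. Replicates carry numbers, but no label ties them to separate mice, so the p-values measure the spread between these cultures, which may be partly technical. Because the arrays read whole cultures, fewer cells of a type and less RNA per cell cannot be told apart in any result below.

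Cells sense oxygen through prolyl hydroxylases, which mark the alpha subunits of the hypoxia-inducible factors (HIF) for destruction while oxygen is plentiful. When oxygen falls the subunits persist, pair with a beta subunit and bind a short core sequence near their target genes, which include glucose transporters, glycolytic enzymes, a lactate exporter, angiogenic factors and the hydroxylases themselves. In fat, HIF activity accompanies tissue growth, and glycolysis also supplies the glycerol backbone of stored triglyceride. ROSI is a ligand of the nuclear receptor PPARG, which drives adipocyte differentiation, and NE is the transmitter through which sympathetic nerves act on fat cells.

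The values are log2 signals, so a difference of 1 is a doubling. The lowest value of any cluster was 2.57 and the highest 14.42, and the medians of the arrays lay between 8.03 and 8.24. Car9, a carbonic anhydrase, was the only member whose mean signal (6.42) lay below the lower quartile of all clusters, and its values lie close to background. Of 8 measured adipocyte markers, Adipoq, Fabp4, Plin1 and 4 others had a mean signal above the lower quartile of all clusters and Lep lay below it. None of the 6 progenitor or 5 mural markers lay below it either. Of 10 macrophage markers, 0 had a mean below the lower quartile. The measured endothelial and skeletal muscle markers all lay above it too, so this level alone does not show that a cell type was present. Clusters 6798930 (Pgk1), 6936621 (Pkm) and 6898932 (Higd1a), which represent these genes by having their highest mean, are numbered among clusters of genes on other chromosomes, so they may read near-identical copies and their values are uncertain. Other Pgk1 and Higd1a clusters sit among genes of their own chromosome (7013187 and 6999549), and both were also higher at day 7 than at day 3 (0.41, SE 0.06, for Pgk1 and 0.54, SE 0.11, for Higd1a).

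Some arrays stood apart from the rest of their groups. In SV129 controls, replicates 5 and 6 were the highest pair of all 8 control arrays for 30 of 35 members (85.7%), against 15.8% of all clusters, and exceeded replicates 1 and 4 by a median of 0.32 over the members and 0.04 over all clusters. SV129 ROSI replicate 1 lay with the controls on the first principal component of the ROSI and control arrays (59.8% of the variance; -18.0, beside the highest control at -18.6), replicate 6 lay between the groups (0.76), and the other 7 ROSI arrays ranged from 22.7 to 33.9. Counts of called members that rest on these arrays are also given without them.

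**Figure D1:**
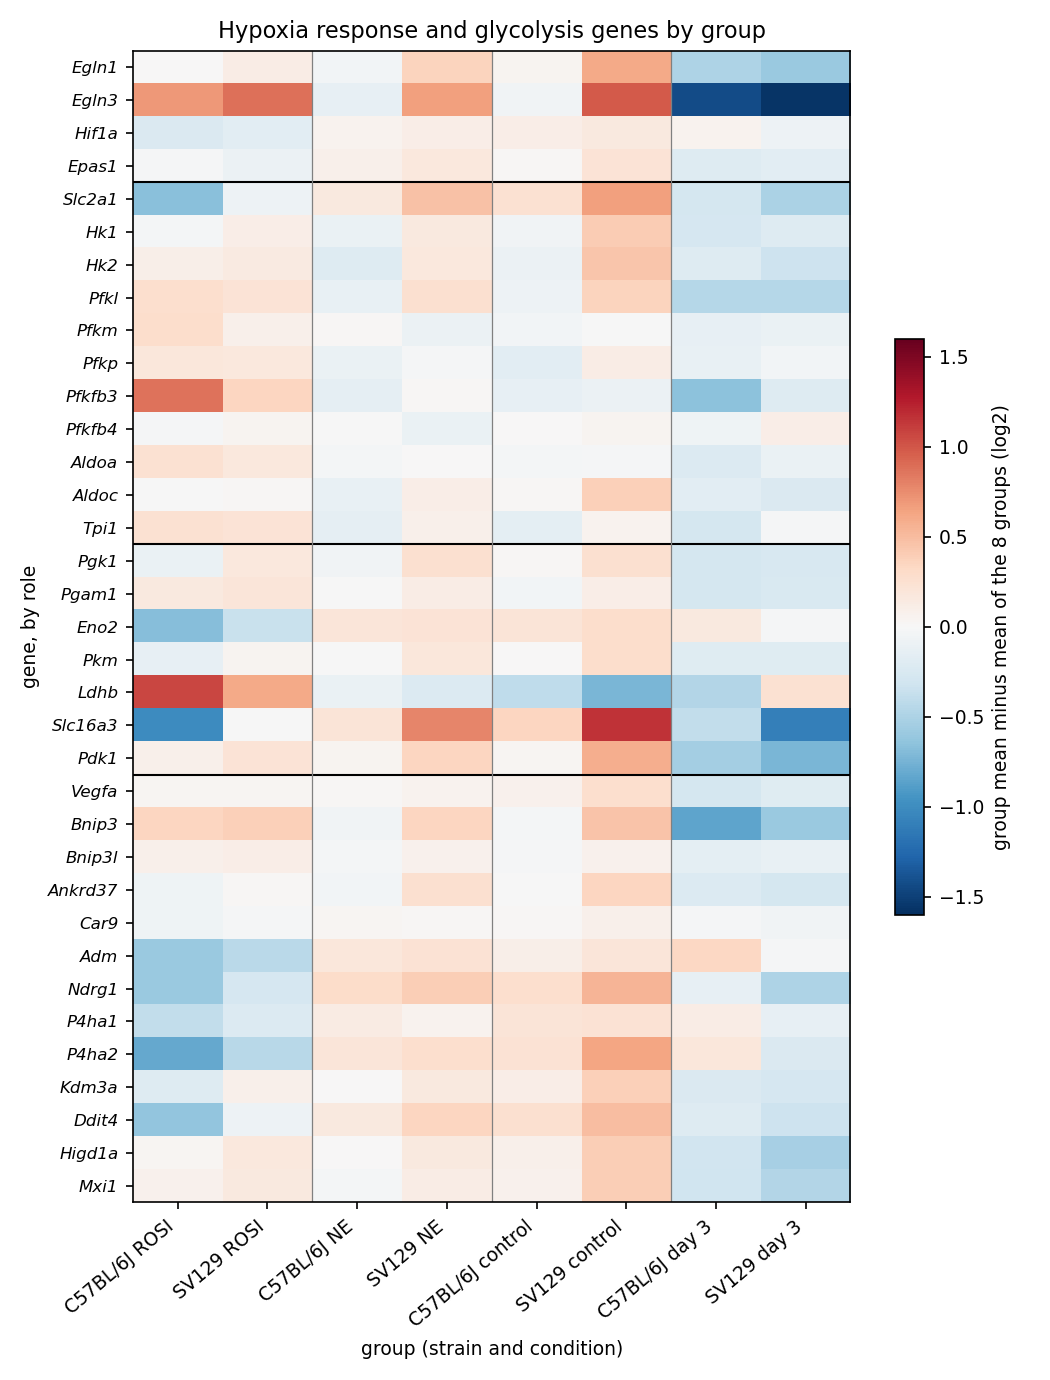
Mean log2 signal of the 35 measured genes (rows, by role: oxygen sensing, glucose uptake and upper glycolysis, lower glycolysis with lactate and pyruvate, other hypoxia-induced genes) in the 8 groups (columns), after subtracting each gene's mean over the groups. Red is above and blue below that mean, and the deepest blue is Egln3 in SV129 at day 3 (-1.57).

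The comparison of day 7 with day 3 in untreated cultures asked how the genes differed between these days of culture. The members rose together: 27 of 35 were higher at day 7 at an adjusted p under 0.01 in limma, 0 were lower and 8 did not pass, where 9.69% of all clusters were higher and 5.6% lower. The median difference was 0.40 over the members and 0.02 over all clusters. All 4 oxygen-sensing members were higher, as were 7 of 11 of glucose uptake and upper glycolysis, 5 of 7 of lower glycolysis, lactate and pyruvate, and 11 of 13 other hypoxia-induced genes.

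Egln3, an oxygen-sensing prolyl hydroxylase that is itself a target of HIF, differed most. Its log2 signals in C57BL/6J were 9.59, 9.13, 9.11 and 9.87 at day 7 and 7.91, 8.09, 8.06 and 8.10 at day 3. In SV129 they were 9.91, 10.10, 10.87 and 10.94 at day 7 and 7.83, 7.84, 7.99 and 7.95 at day 3. Every day 7 array thus lay above every day 3 array, and the difference was 1.97 (SE 0.20, 3.91-fold, adjusted p = 3.8e-06). Egln1, the main prolyl hydroxylase that limits HIF in normal oxygen, ran from 10.38 through a median of 10.81 to 11.41 at day 7 and from 9.84 through 9.96 to 10.12 at day 3. These ranges did not overlap either (0.87, SE 0.12, adjusted p = 5.1e-05). Epas1, the HIF subunit prominent in vessels and fat, rose by 0.31 (SE 0.05, adjusted p = 3.0e-04), with 7 of 8 day 7 arrays above all day 3 arrays. Hif1a, the broadly expressed subunit, differed by 0.14 (SE 0.03, adjusted p = 0.0066), with 6 of 8 day 7 arrays above all day 3 arrays. The call of Hif1a was lost in 16 of 28 alternative settings.

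Slc16a3, which exports lactate, had log2 signals of 9.92, 10.19 and 11.26 (lowest, median, highest) at day 7 and 8.38, 8.94 and 9.31 at day 3, with no overlap, and rose by 1.49 (SE 0.22, 2.81-fold, adjusted p = 1.4e-04). Pdk1, a kinase that holds pyruvate back from mitochondria, had 9.24, 9.35 and 10.19 at day 7 and 8.43, 8.60 and 8.86 at day 3. Its groups did not overlap (0.95, SE 0.13, adjusted p = 6.3e-05). Slc2a1, the basal glucose transporter, had 12.32, 12.49 and 13.11 at day 7 and 11.63, 11.75 and 11.97 at day 3 (0.84, SE 0.11, adjusted p = 3.6e-05), again without overlap. Among enzymes, the phosphofructokinase subunit Pfkl rose by 0.60, the hexokinases Hk2 by 0.44 and Hk1 by 0.41, the phosphoglycerate kinase Pgk1 by 0.40, the aldolase Aldoc by 0.40, the pyruvate kinase Pkm by 0.34, Pfkfb3, which makes an activator of phosphofructokinase, by 0.32, the phosphoglycerate mutase Pgam1 by 0.29 and the aldolase Aldoa by 0.14. Tpi1 (0.11), Pfkm (0.10), Pfkp (0.05), Pfkfb4 (0.01) and Eno2 (0.17) did not pass. Ldhb, the lactate dehydrogenase subunit common in oxidative tissue, was the member with the most negative difference (-0.46, SE 0.14, adjusted p = 0.025) and did not pass.

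Among other hypoxia-induced genes, Bnip3, which promotes removal of mitochondria, had 11.73, 11.89 and 12.51 (lowest, median, highest) at day 7 and 10.94, 11.05 and 11.28 at day 3. Its groups were separate, and its adjusted p was the lowest of the members (0.93, SE 0.07, adjusted p = 2.9e-07). Ndrg1, a stress-induced gene linked to differentiation, rose by 0.71, Ddit4, an inhibitor of mTOR signalling, by 0.65, Higd1a, a mitochondrial inner-membrane protein, by 0.65, and Mxi1, an antagonist of MYC, by 0.63. The histone demethylase Kdm3a rose by 0.49, the collagen prolyl hydroxylase subunits P4ha2 by 0.46 and P4ha1 by 0.22, Ankrd37 by 0.42, the angiogenic factor Vegfa by 0.40 and Bnip3l, a relative of Bnip3, by 0.17. The vasodilator peptide gene Adm (-0.01) and Car9 (0.09) did not pass. The calls of P4ha2, Hk2, Pfkfb3 and Aldoc were near the threshold and were lost in 16, 17, 18 and 12 of 28 alternative settings. Over all clusters 63.4% of calls were rises, which became 52.7% after quantile normalization and 46.6% after median centring. The members had 24 and 21 rises under these settings and no fall. Rises over all clusters numbered 1740 in the main fit, 1523 after quantile normalization and 1290 after median centring.

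Without SV129 control replicates 5 and 6, 6.73% of all clusters were higher at day 7. Of the members 21 (60%) were higher, all of them among the 27. Those lost were Hif1a (0.12, adjusted p = 0.036), P4ha2 (0.29, adjusted p = 0.036), Pfkfb3 (0.31, adjusted p = 0.033), Aldoa, Hk2 and P4ha1 (adjusted p between 0.012 and 0.013). Without C57BL/6J control replicate 3, 1 member (Ldhb) was lower, and counts over all clusters in that fit are not given here. Of 10 macrophage markers, 9 were also higher at day 7, with their summed signal from 4789 to 6761 at day 7 and from 2855 to 4106 at day 3. Of 8 adipocyte markers 0 passed, and their summed signal ran from 15817 to 25793 at day 7 and from 16570 to 27413 at day 3. Their median change was 0.16 in C57BL/6J and -0.73 in SV129. Of 6 progenitor markers 2 were lower, of 5 mural markers 1 was lower, and of 8 endothelial markers 1 was higher. The part of cell composition in the members' rise was not tested.

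To show the DNA at the starts of the genes that moved most, promoter windows of 250 bases before to 50 after the start were taken from RefSeq (GRCm38.p6). Of the 35 measured members, 32 matched a window, and Epas1, Bnip3l and Ndrg1 did not. Both spellings of the HIF binding core, ACGTG and GCGTG, were searched on both strands, and ACGTG overlaps the E-box CACGTG that MYC family proteins bind. At least 1 core was found for 30 of 32 members (93.8%), for 46.7% of all genes in the table and for 58.4% of genes with a cluster of their own. By window, a core was in 76.6% of the members' 47, 43.8% of all and 53.9% of those of genes with a cluster of their own. Of all windows, 19.6% held ACGTG, 32.4% GCGTG and 7.2% CACGTG. The letters of these windows also differ in composition, with a median of 20.0 CG dinucleotides per window in members, 7.0 in all windows and 16.0 in windows of genes on the array, and its part in the share was not tested. Members higher at day 7 had a core in 77.8% of windows (24 of 24 genes) and those that did not pass in 72.7% (6 of 8 genes). For ROSI against control, fallers had a core in 69.2% of windows (9 of 10 genes) and risers in 71.4% (3 of 4 genes). Shown 5′ to 3′, with the core matches in capitals, are the listed first windows of the members that rose most with day (Egln3, Slc16a3, Pdk1, Bnip3), of P4ha2, which with Slc16a3 fell most with ROSI, and of Ldhb, which rose most with ROSI.
Egln3: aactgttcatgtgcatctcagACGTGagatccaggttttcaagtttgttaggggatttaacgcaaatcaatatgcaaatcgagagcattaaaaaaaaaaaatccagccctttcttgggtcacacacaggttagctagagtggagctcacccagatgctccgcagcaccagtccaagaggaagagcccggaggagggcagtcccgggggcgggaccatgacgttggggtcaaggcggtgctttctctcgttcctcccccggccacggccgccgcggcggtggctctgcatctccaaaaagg
Slc16a3: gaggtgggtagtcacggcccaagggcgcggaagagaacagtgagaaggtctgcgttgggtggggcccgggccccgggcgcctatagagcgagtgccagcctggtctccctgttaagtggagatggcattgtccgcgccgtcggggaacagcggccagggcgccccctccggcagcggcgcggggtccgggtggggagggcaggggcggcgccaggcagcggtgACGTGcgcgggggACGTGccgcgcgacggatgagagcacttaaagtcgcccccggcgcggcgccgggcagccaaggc
Pdk1: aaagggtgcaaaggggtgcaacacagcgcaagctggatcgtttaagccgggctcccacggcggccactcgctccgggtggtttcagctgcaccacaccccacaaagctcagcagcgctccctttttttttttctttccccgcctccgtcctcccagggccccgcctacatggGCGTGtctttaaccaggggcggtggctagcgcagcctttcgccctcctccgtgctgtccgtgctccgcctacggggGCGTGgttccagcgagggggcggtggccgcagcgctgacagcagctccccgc
Bnip3: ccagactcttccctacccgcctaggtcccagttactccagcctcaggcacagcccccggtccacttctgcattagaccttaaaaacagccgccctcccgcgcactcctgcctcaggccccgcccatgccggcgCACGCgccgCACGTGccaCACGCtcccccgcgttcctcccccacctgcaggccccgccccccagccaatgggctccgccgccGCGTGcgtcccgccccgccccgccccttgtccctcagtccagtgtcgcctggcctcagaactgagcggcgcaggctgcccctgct
P4ha2: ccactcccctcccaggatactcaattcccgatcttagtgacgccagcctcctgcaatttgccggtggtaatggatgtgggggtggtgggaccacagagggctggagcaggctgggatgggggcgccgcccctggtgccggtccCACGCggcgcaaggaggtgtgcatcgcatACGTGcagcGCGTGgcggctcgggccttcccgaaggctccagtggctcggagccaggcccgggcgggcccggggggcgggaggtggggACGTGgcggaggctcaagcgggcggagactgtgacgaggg
Ldhb: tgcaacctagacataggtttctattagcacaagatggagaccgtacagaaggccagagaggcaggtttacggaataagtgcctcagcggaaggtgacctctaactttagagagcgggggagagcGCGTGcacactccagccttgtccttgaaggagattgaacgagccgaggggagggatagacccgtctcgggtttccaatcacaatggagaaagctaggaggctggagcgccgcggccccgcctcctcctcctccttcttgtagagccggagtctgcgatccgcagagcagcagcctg
The Egln3 window (chr12:54203825-54204124, minus strand) holds 1 core, 229 bases before the start. Slc16a3 (chr11:120948817-120949116, plus strand) holds 2 copies of ACGTG, 27 and 14 bases before the start. Pdk1 (chr2:71872974-71873273, plus strand) has 2 copies of GCGTG, 78 and 2 bases before it. In Bnip3 (chr7:138909457-138909756, minus strand) 5 matches were found, and those 108 and 107 bases before the start are the opposite strands of 1 CACGTG. P4ha2 (chr11:54100674-54100973, plus strand) carries 4 cores, of which 1 begins at base 11 after the start, and Ldhb (chr6:142507908-142508207, minus strand) has 1. A match is only a description of the letters and does not show that a factor binds there.

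**Figure D2:**
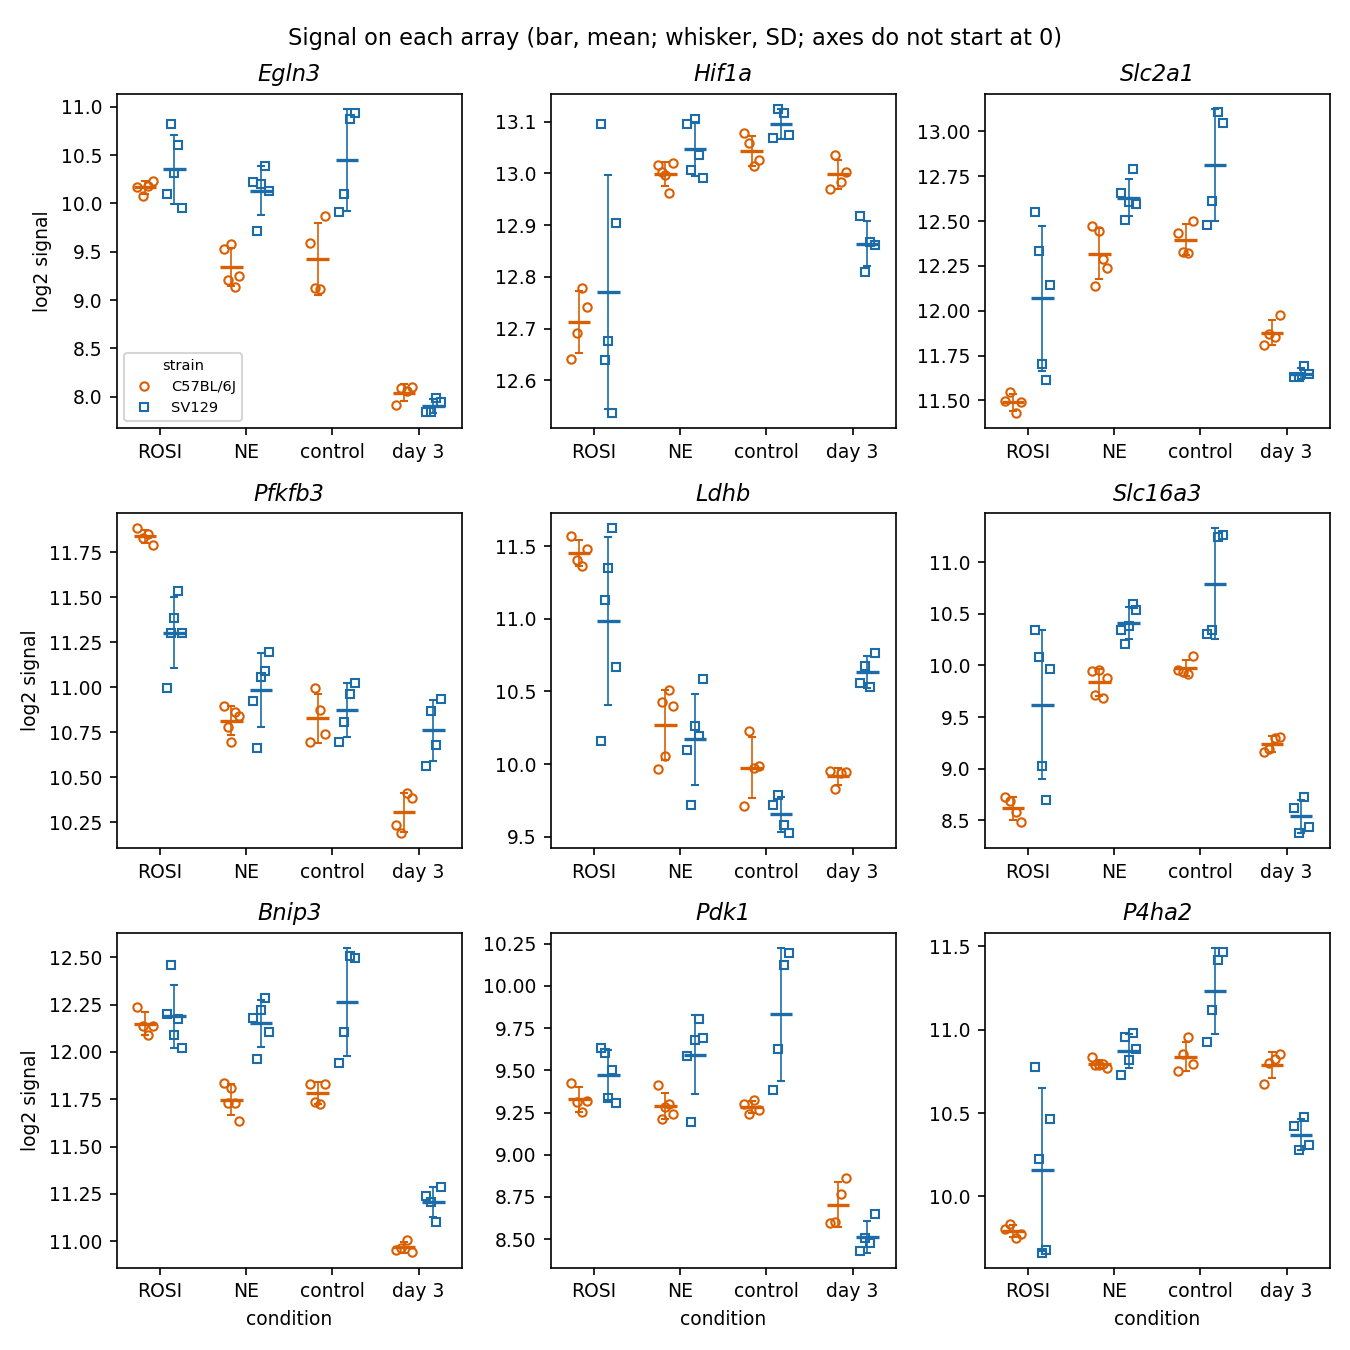
Log2 signal (vertical axes, which do not start at 0) of 9 members on every array by condition, with C57BL/6J as circles and SV129 as squares; bars are means and whiskers SD (n = 4 or 5). Egln3 and Bnip3 at day 3 lie below every day 7 array, and the SV129 ROSI squares of Slc16a3 spread from 8.70 to 10.34.

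ROSI was set against control at day 7 to ask how a PPARG ligand altered the same genes. The members moved in both directions: 4 of 35 rose (11.4%, where 16.3% of all clusters rose), 11 fell (31.4%, where 11.6% of all clusters fell) and 20 did not pass. The median difference was -0.14 over the members and 0.01 over all clusters. The share of fallers was above that of all clusters. The share of risers was below it with all arrays, but above it without SV129 control replicates 5 and 6 (28.6% of members and 15.2% of all clusters). The oxygen-sensing members had 0 higher and 1 lower of 4, glucose uptake and upper glycolysis 3 higher and 1 lower of 11, lower glycolysis, lactate and pyruvate 1 higher and 3 lower of 7, and the other hypoxia-induced genes 0 higher and 6 lower of 13.

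Slc16a3 and Slc2a1 were among the fallers. Slc16a3 had log2 signals of 8.72, 8.69, 8.58 and 8.48 in C57BL/6J ROSI and 9.96, 9.94, 9.92 and 10.09 in C57BL/6J control cultures. In SV129 it had 10.34, 10.08, 9.02, 8.70 and 9.96 with ROSI and 10.30, 10.35, 11.24 and 11.26 in controls. ROSI and control arrays were thus separate in C57BL/6J, while in SV129 replicate 1 with ROSI lay among the controls, and 6 of all 9 ROSI arrays were below all 8 controls (-1.26, SE 0.20, adjusted p = 1.1e-04). Slc2a1 ran from 11.43 through 11.61 to 12.55 with ROSI and from 12.32 through 12.49 to 13.11 in controls, and 7 of 9 ROSI arrays lay below all controls (-0.82, SE 0.12, adjusted p = 3.9e-05). Eno2, the enolase typical of neurons, ran from 8.07 through 8.45 to 9.18 with ROSI and from 9.07 through 9.24 to 9.31 in controls. All ROSI arrays but 1 were below the controls (-0.75, SE 0.10, adjusted p = 1.4e-05). Pkm differed little (-0.20, SE 0.05, adjusted p = 0.0077), and its call was lost in 17 of 31 alternative settings.

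Of the 13 other hypoxia-induced genes, the 6 that fell were P4ha2, P4ha1, Ndrg1, Ddit4, Adm and Kdm3a. P4ha2 ran from 9.66 through 9.81 to 10.77 with ROSI and from 10.76 through 10.94 to 11.47 in controls, with 8 of 9 ROSI arrays below all controls (-1.06, SE 0.13, 2.09-fold, adjusted p = 7.6e-06). Its partner P4ha1 was the only faller without overlap, at 11.60, 11.68 and 12.05 (lowest, median, highest) with ROSI and 12.17, 12.27 and 12.33 in controls (-0.52, SE 0.06, adjusted p = 2.8e-06). Ndrg1 fell by 0.83 (SE 0.12, adjusted p = 2.9e-05), Ddit4 by 0.72 (SE 0.13, adjusted p = 2.0e-04), Adm by 0.66 (SE 0.13, adjusted p = 6.3e-04) and Kdm3a by 0.30 (SE 0.06, adjusted p = 7.2e-04). For Ndrg1, Ddit4 and Adm 8 of 9 ROSI arrays were below all controls, and for Kdm3a 6 of 9.

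Of the oxygen sensors, Hif1a fell and the others did not pass. Hif1a had 12.64, 12.69, 12.78 and 12.74 in C57BL/6J ROSI and 13.08, 13.06, 13.01 and 13.02 in C57BL/6J control cultures. In SV129 the values were 13.10, 12.64, 12.68, 12.54 and 12.90 with ROSI and 13.07, 13.12, 13.12 and 13.07 without. The 13.10 of SV129 ROSI replicate 1 was inside the control range and all others were below it (-0.33, SE 0.06, adjusted p = 3.1e-04). Egln1 (-0.28, SE 0.11, adjusted p = 0.043) and Epas1 (-0.18, SE 0.07, adjusted p = 0.053) were lower short of the threshold, and Egln3 had a positive difference (0.30, SE 0.19, adjusted p = 0.24).

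Ldhb and 3 upper-glycolysis genes rose. Ldhb had 11.57, 11.41, 11.37 and 11.48 in C57BL/6J ROSI and 9.71, 10.23, 9.97 and 9.99 in C57BL/6J control cultures. In SV129 it had 10.16, 11.13, 11.35, 11.62 and 10.67 with ROSI and 9.72, 9.79, 9.58 and 9.53 without. Only SV129 ROSI replicate 1 fell within the range of all controls (1.40, SE 0.15, 2.64-fold, adjusted p = 2.4e-06). Pfkfb3 ran from 11.00 through 11.53 to 11.88 with ROSI and from 10.70 through 10.84 to 11.03 in controls (0.71, SE 0.10, adjusted p = 2.1e-05), with 8 of 9 ROSI arrays above all controls. Smaller rises were those of Tpi1, the triose phosphate isomerase (0.27, SE 0.06, adjusted p = 0.0017), and Aldoa (0.23, SE 0.04, adjusted p = 1.0e-04). SV129 ROSI replicate 1 lay within the control range for all 4 risers and 10 of the 11 fallers, and replicate 6 for 1 riser and 2 fallers.

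The remaining members, Aldoc, Ankrd37, Pdk1, Hk1, Higd1a, Vegfa, Mxi1, Pgk1, Car9, Hk2, Pfkfb4, Bnip3l, Pfkl, Bnip3, Pgam1, Pfkp and Pfkm, had differences between -0.20 and 0.20 and did not pass. The count of risers depended on the SV129 controls: without replicates 5 and 6, 10 members rose and 10 fell, where 15.2% of all clusters rose and 9.92% fell. Without both pairs of arrays the counts were again 10 and 10, where 19% of all clusters rose and 13.6% fell. With only SV129 control replicates 5 and 6 left out, the added risers were Egln3 (0.58, adjusted p = 0.0055), Pfkl (0.26, adjusted p = 3.6e-04), Bnip3 (0.28, adjusted p = 0.0028), Pfkm (0.27, adjusted p = 0.0043), Pfkp (0.30, adjusted p = 0.0098) and Pgam1 (0.19, adjusted p = 0.0024). In that setting Pkm no longer passed (adjusted p = 0.053). Without SV129 ROSI replicates 1 and 6, all 15 calls were kept and Pfkm, Pfkp and Pgam1 rose as well, so 7 of 35 (20%) rose, where 19.6% of all clusters did. The second Pgam1 cluster (6966043) passed with all arrays (0.23, SE 0.06, adjusted p = 0.0046), where the cluster of highest mean missed the threshold (0.14, adjusted p = 0.015). That second cluster is numbered among clusters of genes on another chromosome. It may thus read a near-identical copy, and its values are uncertain. Over all clusters 58.4% of calls were rises, which became 45.7% after quantile normalization and 47.3% after median centring. The members kept 4 risers under both and had 14 and 11 fallers. Fallers over all clusters rose as well, from 2081 in the main fit to 3023 after quantile normalization and 2817 after median centring. Adipocyte markers moved with ROSI, 7 of 8 higher, with their summed signal from 25576 to 51729 with ROSI and from 15817 to 25793 in controls. Of 6 progenitor markers 4 were lower, and the summed signal was 10346 to 17497 with ROSI and 17888 to 20867 in controls. Of 5 mural and smooth muscle markers 4 were lower and 1 higher, with a summed signal of 3770 to 6686 with ROSI and 5141 to 9266 in controls. The part of cell composition in the members' differences was not tested.

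**Figure D3:**
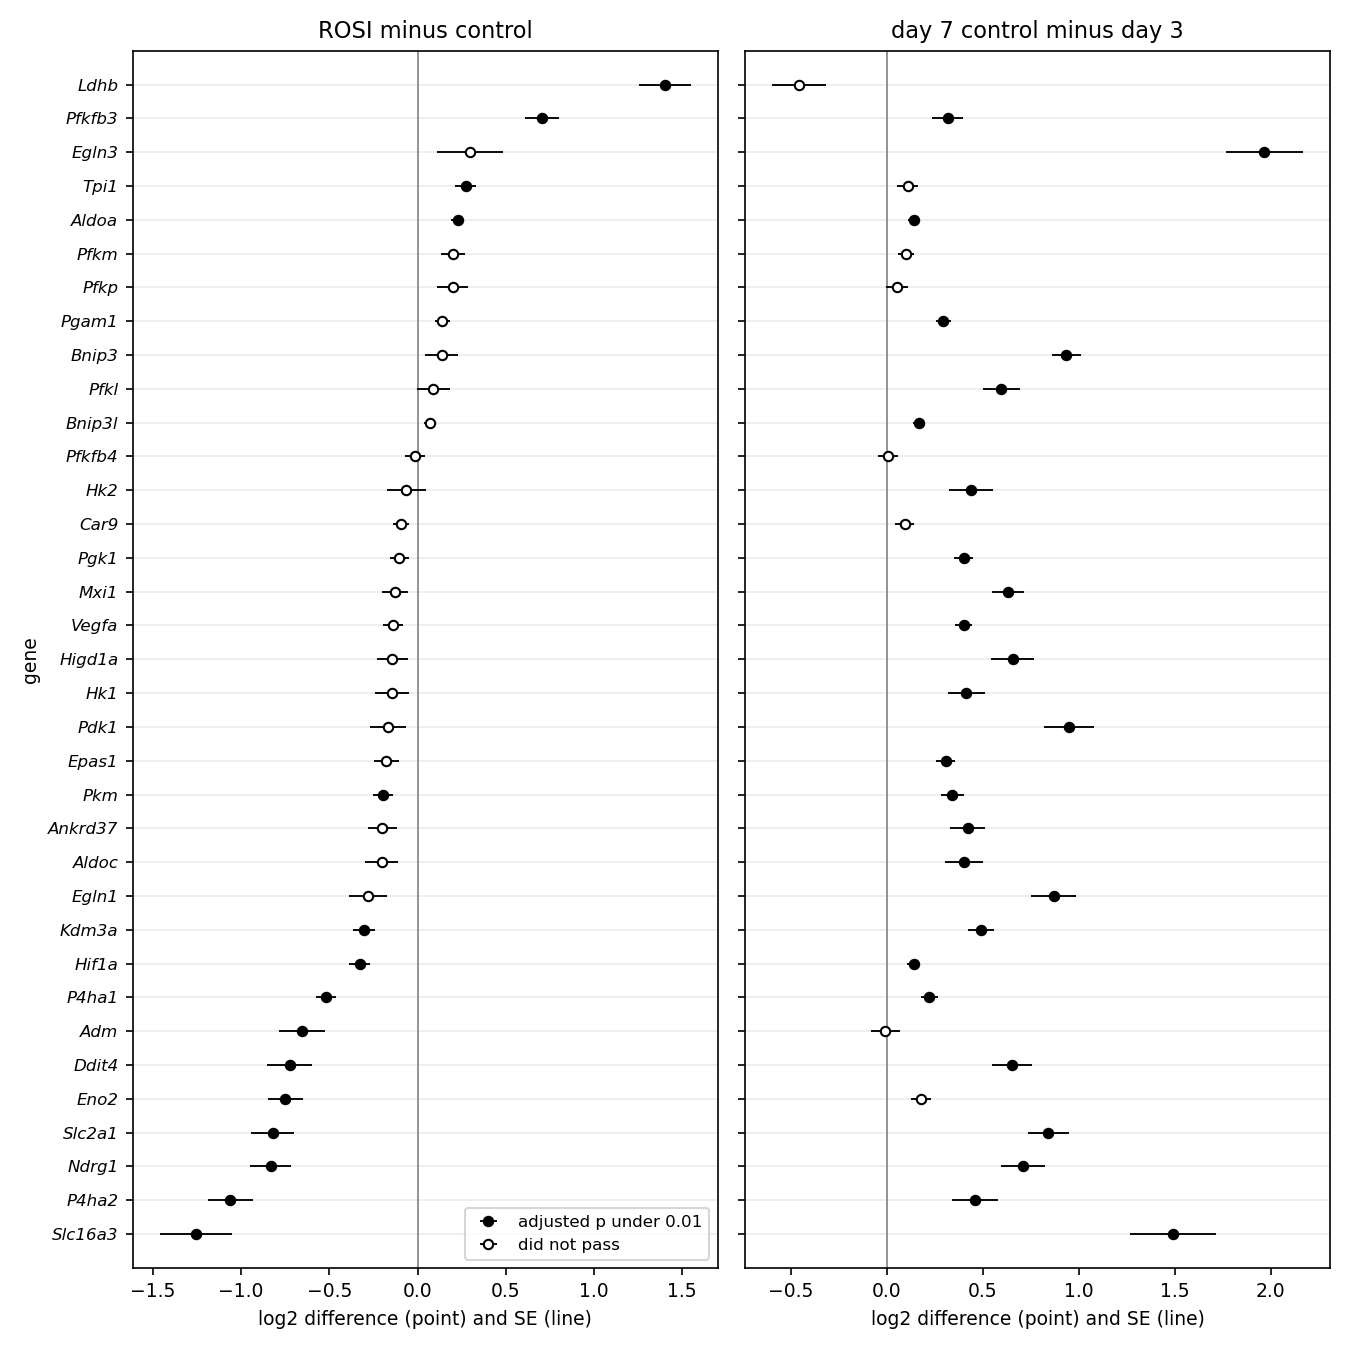
Log2 differences of the 35 members for ROSI minus control (left) and day 7 control minus day 3 (right), in the order of the ROSI difference; points are limma estimates, lines SE, and filled points passed at an adjusted p under 0.01. Slc16a3 is lowest on the left (-1.26) and second highest on the right (1.49); the comparisons share the day 7 control arrays.

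Because both comparisons use the same control arrays, ROSI at day 7 was also set against day 3, a comparison added after the data were seen. Of the members, 22 were higher (62.9%, where 22.8% of all clusters were), 4 lower (11.4%, where 13.3% were) and 9 did not pass. The share of lower members was thus near that of all clusters. Egln3 was 2.30 higher (SE 0.10, 4.92-fold, adjusted p = 2.2e-10), at 9.95, 10.18 and 10.82 (lowest, median, highest) with ROSI and 7.83, 7.97 and 8.10 at day 3. Bnip3 was 1.08 higher (SE 0.06, adjusted p = 1.0e-09), Pfkfb3 1.01, Ldhb 0.92, Pdk1 0.80, Pfkl 0.70 and Egln1 0.60. In each of these 7 genes but Ldhb, all 9 ROSI arrays exceeded all day 3 arrays. The 7 were named for having the largest rises, and the share of all clusters so separated was not counted. The other 15 higher members differed by 0.15 (Pkm, whose call was lost in 18 of 29 alternative settings) to 0.53 (Higd1a). Slc16a3 (0.27, SE 0.27), Slc2a1 (0.04, SE 0.14), Ndrg1 (-0.11, SE 0.13), Ddit4 (-0.06, SE 0.12), Epas1 (0.13, SE 0.05), Kdm3a (0.19, SE 0.06), Pfkfb4 (-0.01), Car9 (0.00) and Hif1a (-0.18, SE 0.06, adjusted p = 0.026) did not pass. Adm (-0.65), P4ha2 (-0.58), Eno2 (-0.57) and P4ha1 (-0.29) were below their day 3 levels. Without SV129 ROSI replicates 1 and 6, Hif1a was lower than at day 3 too (-0.27, adjusted p = 3.3e-06), and Pkm and Ankrd37 were not called. This gave 20 higher members (57.1%, where 26.2% of all clusters were) and 5 lower (14.3%, where 16.7% were). In the same comparison 6 of 8 adipocyte markers and 8 of 10 macrophage markers were higher, all 6 progenitor markers lower, and of 5 mural markers 3 lower and 1 higher. Summed signals with ROSI and at day 3 were 25576 to 51729 and 16570 to 27413 for the adipocyte list, 4084 to 7362 and 2855 to 4106 for the macrophage list, and 10346 to 17497 and 18601 to 22476 for the progenitor list. Their part in the members' differences was not tested. The split of calls over all clusters was 63.1% higher, 46.2% after quantile normalization and 45.7% after median centring.

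The drugs were compared directly, ROSI with NE. Here 8 members were higher with ROSI (22.9%, where 15.8% of all clusters were), 10 lower (28.6%, where 12% were) and 17 did not pass. The lower members included Slc16a3 (-0.99, SE 0.17, adjusted p = 1.0e-04), P4ha2 (-0.85), Ndrg1 (-0.76), Eno2 (-0.72), Adm (-0.71) and Slc2a1 (-0.69). The higher members were led by Ldhb, at 10.16, 11.37 and 11.62 (lowest, median, highest) with ROSI and 9.72, 10.23 and 10.59 with NE (0.99, SE 0.15, adjusted p = 5.7e-05). In 8 of 9 ROSI arrays Ldhb exceeded every NE array. Pfkfb3 was 0.65 higher, Egln3 0.51 higher (SE 0.12, adjusted p = 0.0028) and Tpi1 0.26 higher, and the phosphofructokinase subunits Pfkp (0.24) and Pfkm (0.22), Aldoa (0.22) and Pgam1 (0.12) were higher too. Hif1a (-0.28, SE 0.05, adjusted p = 3.9e-04), Ddit4 (-0.59), P4ha1 (-0.40) and Epas1 (-0.19, SE 0.05, adjusted p = 0.0089) were lower, and Egln1 (-0.11, adjusted p = 0.23) did not pass. The call of Epas1 was lost in 17 of 31 alternative settings. Without SV129 ROSI replicates 1 and 6, 9 members were higher (25.7%, where 19.4% of all clusters were) and 11 lower (31.4%, where 15.5% were). The members added were Bnip3 (0.26) and Pkm (-0.15). Here 7 of 8 adipocyte markers were higher with ROSI, all 6 progenitor markers lower, and of 5 mural markers 4 lower and 1 higher. Summed signals with ROSI and NE were 25576 to 51729 and 20127 to 29390 for the adipocyte list, 10346 to 17497 and 16374 to 19465 for the progenitor list, and 3770 to 6686 and 4680 to 9033 for the mural list. What they contribute to the members' differences was not tested.

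NE set against control gave no call in limma, 0 of 35 members and 0% of all clusters, with 9 members and 2053 of all clusters at an unadjusted p under 0.05. The largest positive difference was that of Ldhb, at 9.97, 10.42, 10.06, 10.51 and 10.40 in C57BL/6J NE and 10.09, 9.72, 10.26, 10.19 and 10.59 in SV129 NE cultures, against control values between 9.53 and 10.23. Of 10 NE arrays 5 lay above all controls (0.41, SE 0.10, adjusted p = 0.095). Slc16a3 had the most negative difference (-0.26, SE 0.12, adjusted p = 0.40), and Egln3 (-0.20), Egln1 (-0.16), Hif1a (-0.05) and Epas1 (0.01) all overlapped the controls. Leaving out SV129 control replicates 5 and 6 left 2 members at an unadjusted p under 0.05.

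The strains were compared over all 4 conditions. In C57BL/6J against SV129, 0 members were higher, 7 lower (20.0%) and 28 did not pass, where 2.75% of all clusters were higher and 1.48% lower. The lower members were Egln3 (-0.48, SE 0.12, adjusted p = 0.0074), Bnip3 (-0.29, SE 0.05, adjusted p = 2.3e-04), Hk1 (-0.23), Pgk1 (-0.22, SE 0.04, adjusted p = 6.9e-05), Kdm3a (-0.17), Pkm (-0.17) and Tpi1 (-0.16). Their ranges over all arrays overlapped between the strains. Egln1 (-0.25, adjusted p = 0.014), Epas1 (-0.06) and Hif1a (-0.01) missed the threshold. By condition, 26 of 35 members had the lower mean in C57BL/6J with ROSI, 30 with NE, 34 in controls and 14 at day 3, and the median strain differences were -0.09 with ROSI, -0.15 with NE, -0.27 in controls and 0.03 at day 3. In controls without SV129 replicates 5 and 6, 25 of 35 were lower in C57BL/6J, with a median of -0.08. These counts by condition were not taken over all clusters. When SV129 control replicates 5 and 6 were left out, Hk1, Pgk1, Pkm and Bnip3 were lower (11.4% of members, where 0.785% of all clusters were). The other 3 were not called, among them Egln3 (-0.36, adjusted p = 0.025). Without SV129 ROSI replicates 1 and 6, 9 members were lower (25.7%, where 1.51% of all clusters were), with Pfkp and Pgam1 added. Without both pairs 7 were lower (20%, where 0.819% of all clusters were). Of 10 macrophage markers 7 were higher in C57BL/6J, of 6 progenitor markers 2 were lower, and of 5 mural markers 2 were higher. Of 8 adipocyte markers 0 passed. The part of cell composition in the strain difference was not tested. Over all clusters 65.0% of strain calls were higher in C57BL/6J, and 54.9% after median centring.

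The change by day was more positive in SV129 for 30 of 35 members, with a median change of 0.22 in C57BL/6J and 0.51 in SV129. In limma 23 members and 4193 of all 17958 clusters had an unadjusted p under 0.05 for the difference between the changes. Without SV129 control replicates 5 and 6, 26 members had the more positive change in SV129, with medians of 0.22 in C57BL/6J and 0.34 in SV129. Then 17 members had an unadjusted p under 0.05. The direction of change was not counted over all clusters. After adjustment 3 passed, 1 higher and 2 lower in C57BL/6J than in SV129, where 2.78% of all clusters were higher and 1.53% lower. Slc16a3 changed by 0.73 (SE 0.18) in C57BL/6J and 2.25 (SE 0.18) in SV129, a difference of -1.51 (SE 0.25, adjusted p = 0.0013). P4ha2 changed by 0.05 (SE 0.10) in C57BL/6J and 0.86 (SE 0.10) in SV129 (-0.81, adjusted p = 0.0014). Ldhb went the other way, with changes of 0.06 (SE 0.09) in C57BL/6J and -0.98 (SE 0.09) in SV129 (1.04, adjusted p = 1.1e-04). The Ldhb values in C57BL/6J were 9.71, 10.23, 9.97 and 9.99 at day 7 and 9.95, 9.83, 9.94 and 9.94 at day 3, and those in SV129 were 9.72, 9.79, 9.58 and 9.53 at day 7 and 10.56, 10.67, 10.53 and 10.77 at day 3. The days were thus separate in SV129 and overlapped in C57BL/6J. Egln3 (1.38 in C57BL/6J and 2.55 in SV129, adjusted p = 0.017 for the difference), Egln1 (adjusted p = 0.016), Hif1a (adjusted p = 0.028) and Epas1 (adjusted p = 0.34) did not pass.

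All 3 differences kept their calls without SV129 control replicates 5 and 6 (Slc16a3 -1.05, P4ha2 -0.60, Ldhb 0.94). Of all clusters 1.7% were then higher and 0.752% lower. With all 35 arrays in a single limma model none of the 3 passed (adjusted p between 0.011 and 0.029). Over all clusters 47 were then higher and 48 lower. The number of lower members rose to 11 without SV129 control replicate 1, 6 without SV129 control replicate 4 and 4 without C57BL/6J control replicate 6. Counts over all clusters in these fits are not given here, so the rises cannot be set against them. In the same test 7 of 8 adipocyte markers passed with a more positive change in C57BL/6J, where the median change over the list was 0.16, against -0.73 in SV129, and all 8 had a positive change in C57BL/6J and a negative change in SV129. Their part in the members' difference was not tested. Over all clusters 64.5% of calls were higher in C57BL/6J, 47.4% with array weights, 54.8% after quantile normalization and 49.5% after median centring. For the difference between strains in the ROSI change, limma passed 0 members and 0.00557% of all clusters, with 9 members and 1611 of all clusters at an unadjusted p under 0.05 (3 members without SV129 control replicates 5 and 6). For the NE change it passed 0 members and 0% of clusters, with 1 member and 1747 of all clusters at an unadjusted p under 0.05.

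**Figure D4:**
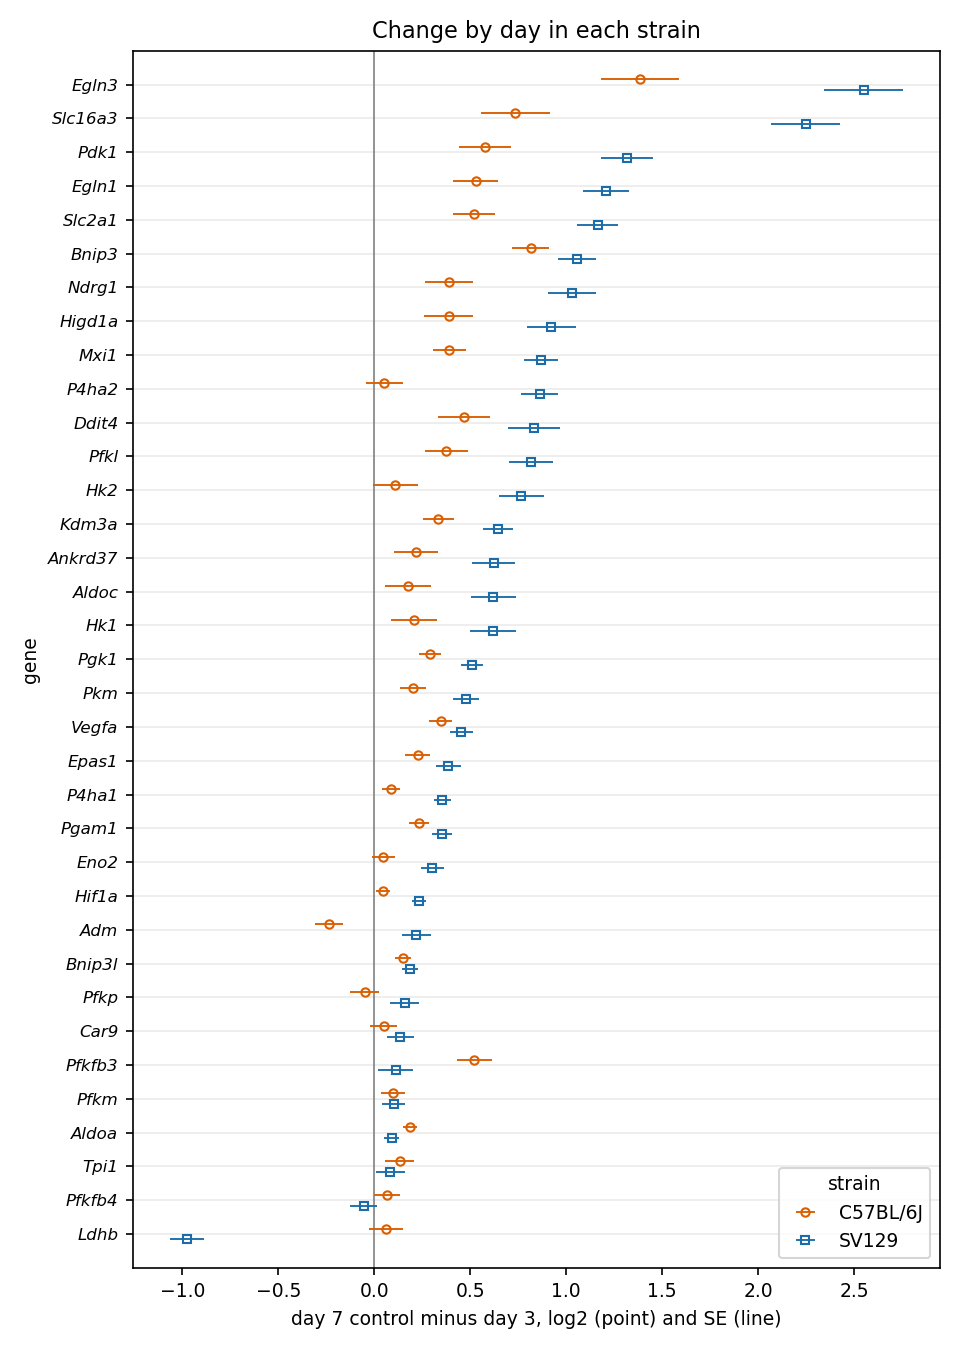
Change in log2 signal between untreated day 7 and day 3 cultures for each member, with C57BL/6J as circles and SV129 as squares (n = 4 arrays per group); points are limma estimates and lines SE. SV129 lies to the right for most genes, Egln3 furthest at 2.55, and to the left for Ldhb at -0.98.

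Further genes of the pathways were read from lists beside the members. Of 36 other measured hypoxia-induced genes, 21 were higher and 1 lower at day 7 than at day 3, with a median difference of 0.25, where 9.69% of all clusters were higher and 5.6% lower. The largest were the adenylate kinase Ak4 (1.18, SE 0.14), Ero1a, an oxidase of the endoplasmic reticulum (1.00, SE 0.06), and the glycogen branching enzyme Gbe1 (0.96, SE 0.11). Of 13 other oxygen-sensing and HIF genes 3 were higher and 1 lower, among them the HIF beta subunit Arnt2 (0.34), the ubiquitin ligase subunit Vhl (0.20) and the HIF competitor Cited2 (-0.20). Of 29 other glycolysis and pyruvate genes 2 were higher and 2 lower, shares near those of all clusters, with the lactate and pyruvate transporters Slc16a1 at 0.51 and Slc16a7 at -0.74, and the muscle enolase Eno3 at -0.37.

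With ROSI against control, 7 of the 36 hypoxia-induced genes were higher, a share near the 16.3% of all clusters, and 12 lower, where 11.6% of all clusters were, and the largest were the pyruvate dehydrogenase kinases Pdk4 (2.39, SE 0.28) and Pdk2 (1.73, SE 0.16) and the transferrin receptor Tfrc (0.88). Of the 29 glycolysis and pyruvate genes 15 were higher and 1 lower, led by the insulin-responsive glucose transporter Slc2a4 (2.05, SE 0.18), Gpd1, which makes glycerol 3-phosphate (2.00, SE 0.16), and the pyruvate carboxylase Pcx (1.49, SE 0.14). Of the 13 oxygen-sensing genes 2 were higher, again near the share of all clusters, and 3 lower, among them Arnt2 (-0.66, SE 0.09), the ubiquitin ligase scaffold Cul2 (0.52) and Cited2 (-0.33). Pdk4, Slc2a4, Gpd1 and Pcx are also known as genes of mature adipocytes. Between the strains, Gbe1 (-0.37), Ak4 (-0.34) and the glycogen synthase Gys1 (-0.23) were lower in C57BL/6J, and the other 33 hypoxia-induced genes did not pass.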

How the data were processed

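RNA of 35 cultures was measured on exon arrays. The authors made the deposited log2 values, 1 per transcript cluster and array, by RMA in Affymetrix Power Tools, which corrects background, normalizes arrays to each other and summarises probes; no version is named in the sources used here. Values were used as deposited, with 0 columns left unmapped and 0 identical arrays (highest correlation 0.998). Precision is limited by the number of arrays per group.

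Groups came from the sample labels. Comparisons used limma 3.58.1 under R 4.3.3, on the arrays compared, with strain as covariate (condition for the strain comparison), two-sided, adjusted by Benjamini-Hochberg over all 17958 clusters, threshold 0.01. A gene with several clusters was represented by that of highest mean. Figures were made in Python 3.11.15 using matplotlib 3.10.9. The code was tested on simulated data.

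The members and lists were chosen with earlier results of these data known. Values are given for up to 6 members per direction and comparison with the largest differences among those that passed, for Hif1a, Epas1, Egln1 and Egln3, and for up to 3 genes of each other list; others were named by role. Alternatives were thresholds of 0.05 and 1.5-fold, no strain term, all arrays in 1 model, array weights, an intensity trend, median centring, quantile normalization, leaving out dim clusters, mean over clusters, a replicate block, and leaving out arrays. ROSI against day 3, and leaving out both pairs of arrays together, were added after the data were seen, as were the strain differences by condition and the changes within strains without SV129 control replicates 5 and 6.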

Additional observations from a re-analysis of the deposited data

Results flagged for a closer look

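Groups of 4 or 5 arrays were screened for an array whose gap to its neighbour was large for the group's range. Of 280 groups 16 had such an array, in 14 members, and chance alone marks about 1 in 20. C57BL/6J control replicate 6 was highest in 4 members, with Aldoc at 8.60 (others 8.49 to 8.50), Ddit4 at 10.18 (others 9.74 to 9.78), Hk2 at 9.43 (others 9.21 to 9.24) and Pgk1 at 13.15 (others 12.95 to 12.97). In SV129 NE cultures replicate 6 was highest in Aldoa (13.41, others 13.29 to 13.32) and Aldoc (8.76, others 8.54 to 8.60), and replicate 2 lowest in Pfkl (11.13, others 11.35 to 11.44). In C57BL/6J NE cultures replicate 1 was highest in Mxi1 (8.64, others 8.47 to 8.51) and replicate 6 in Pfkfb4 (7.99, others 7.87 to 7.91).

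Among ROSI cultures, SV129 replicate 3 was lowest in Ankrd37 (7.13, others 7.45 to 7.55), SV129 replicate 1 highest in Epas1 (11.65, others 11.29 to 11.39) and C57BL/6J replicate 3 highest in Pfkm (9.15, others 8.99 to 9.01). At day 3, SV129 replicate 3 was lowest in Egln1 (9.84, others 9.94 to 9.96) and Pgam1 (12.26, others 12.30), SV129 replicate 1 lowest in Mxi1 (8.01, others 8.09 to 8.10) and C57BL/6J replicate 3 lowest in Ldhb (9.83, others 9.94 to 9.95). The change by day differed between the strains, as C57BL/6J minus SV129, in P4ha2 (-0.81), Slc16a3 (-1.51) and Ldhb (1.04).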

How the results depend on the processing

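No called member reversed its direction under the alternatives run. Of members not called for ROSI against control, Hk2 and Pdk1 had differences of -0.06 and -0.17 with all arrays and 0.11 and 0.01 without SV129 control replicates 5 and 6. Counts in brackets below are those over all clusters tested under the same setting. With a minimum of 1.5-fold, ROSI against control had 2 higher and 7 lower members (959 and 341). Day 7 against day 3 had 11 higher (197), ROSI against NE 2 higher (755) and C57BL/6J against SV129 0 lower (14). ROSI against day 3 had 7 higher and 1 lower (1101 and 502). At a threshold of 0.05, day 7 against day 3 had 1 lower (1694), the strain comparison 14 lower (669) and the interaction of day with strain 12 lower (788). ROSI against control had 4 higher members in the main fit (2923), 7 with all 35 arrays in 1 model (3524) and 7 with array weights (3630). It had 7 without SV129 ROSI replicates 1 and 6 (3520), 10 without SV129 control replicates 5 and 6 (2728), and 10 without both pairs (3411). The strain comparison had 4 lower without SV129 control replicates 5 and 6 (141) and 7 in the main fit (265). The interaction of day with strain had 0 higher and 0 lower with all 35 arrays in 1 model (47 and 48). Its lower members numbered 2 in the main fit (275), 5 with an intensity trend (329) and 21 with array weights (1054). They numbered 6 after quantile normalization (473), 5 after median centring (493) and 5 without dim clusters (342). Same-numbered cultures correlated between -0.31 and 0.30 in their deviations from the group mean, with at most 2 of 7 pairs per comparison above 0.1. With 4 or 5 arrays per group and no label on origin, these values cannot decide whether such cultures are paired. With the replicate block, calls fell over all clusters as well. Day 7 against day 3 then had 14 higher members (766, against 1740 in the main fit). ROSI against NE had 0 higher and 0 lower (0 and 0, against 2845 and 2152). ROSI against day 3 had 0 lower (1471, against 2393) and the interaction of day with strain 1 lower (48, against 275). For C57BL/6J against SV129 no block was possible because cultures of the strains are not paired. Leaving out each array in turn gave 4 to 6 higher and 10 to 11 lower members for ROSI against control, 21 to 27 higher and 0 to 1 lower for day 7 against day 3, 6 to 9 higher and 9 to 11 lower for ROSI against NE, 20 to 23 higher and 3 to 5 lower for ROSI against day 3, 5 to 9 lower for C57BL/6J against SV129, and 1 higher and 2 to 11 lower for the interaction of day with strain. Counts over all clusters with single arrays left out are not given here, and the causes were not tested. NE against control and the interactions of either drug with strain had 0 members under every alternative run.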
